A study of Mus musculus with 4 samples.

Results

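Genes of T-cell costimulation were followed, chosen by name as receptor and ligand pairs: Cd28 and Ctla4 with their shared ligands Cd80 and Cd86, Icos with Icosl, Cd40lg with Cd40, and the PD-1 ligands Cd274 and Pdcd1lg2. They are 10 of the 54752 genes listed in the count files, and all 10 had enough counts to be among the 14330 genes tested. RNA was measured in Tfh-polarized cultures of splenic naïve CD4+ T cells on day 3, in 2 libraries of wild-type (WT) littermates and 2 libraries labelled Mek1/2-tKO. Mek1/2-tKO mice carried Cd4-Cre with Map2k1 fl/fl and Map2k2 fl/fl, so that Cre was driven by a promoter active in developing T cells, whereas the sources used here do not state which of these alleles the WT littermates carried, nor the age or sex of the mice. Every culture received plate-bound anti-CD3, as well as anti-CD28, IL-6 and blocking antibodies to TGF-β, IL-4, IFN-γ and IL-2. Viable cells were sorted again before RNA was taken, with no gate on a lineage marker described. The question of the comparison was how the loss of MEK1 and MEK2, the kinases that activate ERK, changed the RNA of these cells.

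A T cell needs a signal through its antigen receptor and a costimulatory signal, classically given when CD28 on the T cell binds CD80 (B7-1) or CD86 (B7-2) on an antigen-presenting cell. CTLA-4 binds the same ligands more tightly and restrains the response, ICOS binds ICOS ligand and sustains T follicular helper (Tfh) cells, and CD40 ligand on the helper T cell engages CD40 on B cells and dendritic cells to drive germinal centres and antibody class switching. PD-L1 (Cd274) and PD-L2 (Pdcd1lg2) bind the inhibitory receptor PD-1, and activated T cells themselves can make CD80, CD86 and PD-L1.

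CD28, CTLA-4 and ICOS are related proteins encoded next to each other on mouse chromosome 1, and 2 short stretches of their coding sequence show what the family shares and where ICOS departs. The extracellular loop that contacts the ligand is shown first, with the 6 codons of the loop motif in capitals, read 5′ to 3′ on the plus strand of GRCm38 from GENCODE M21 transcripts (Cd28 at chr1:60763266-60763301, Ctla4 at chr1:60912704-60912739 and Icos at chr1:60993974-60994009, all exonic and coding).
Cd28: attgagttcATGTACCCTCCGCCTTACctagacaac
Ctla4: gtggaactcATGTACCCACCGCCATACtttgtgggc
Icos: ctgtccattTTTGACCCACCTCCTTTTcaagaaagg
Cd28 and Ctla4 encode the same residues there, methionine, tyrosine, a run of prolines and tyrosine, at codons 118 to 123 of 218 in Cd28 and 134 to 139 of 223 in Ctla4. Icos keeps the prolines and has phenylalanine and aspartate before them and phenylalanine after them, at codons 114 to 119 of its 223 codons.
The cytoplasmic motif that follows, tyrosine and methionine with any 2 residues between them (YxxM), recruits PI3K, and its 4 codons are in capitals (Cd28 at chr1:60769684-60769713, Ctla4 at chr1:60914637-60914666 and Icos at chr1:60995551-60995580).
Cd28: caaagtgacTACATGAACATGactccccgg
Ctla4: acaggggtcTATGTGAAAATGcccccaaca
Icos: aatagtgaaTACATGTTCATGgcggcagtc
All 3 genes encode the motif, at codons 189 to 192 in Cd28, 201 to 204 in Ctla4 and 181 to 184 in Icos, and the counts below are whole-gene counts that do not distinguish these exons from the rest.

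The library totals lay between 16330802 and 18931090 counts, mitochondrial genes took 1.56% to 2.24% of them, and a count of 0 allowed up to 3 counts, or 0.154 to 0.194 CPM (counts scaled to the effective library size). Of the targeted genes, Map2k1 (MEK1) had 181 and 187 CPM in the WT libraries and 97.9 and 105 CPM in the others (log2 fold change -0.86, edgeR adjusted p = 1.29e-06), while Map2k2 (MEK2) went from 159 ± 7.17 to 177 ± 7.51 CPM (SD, n = 2 each; 0.15, adjusted p = 0.126). Which exons are floxed is not given in the sources used here, so a whole-gene count does not check the deletion. The labelled cell type was read from marker genes. Cd4, at 297 and 289 CPM in the WT libraries, had 18.8 and 25.1 CPM in the Mek1/2-tKO libraries. All 11 B-lineage markers rose, with a summed level of 1273 to 1300 CPM in WT and 6696 to 6733 CPM in Mek1/2-tKO, and Ighm, the heavy chain of IgM, was the most abundant of them (682 ± 17.9 and 3078 ± 19.3 CPM). Of 11 alpha-beta T-cell markers, 0 rose and 6 fell, and the sum went from 2924 to 2942 CPM in WT to 1781 to 1965 CPM in Mek1/2-tKO. The 5 gamma-delta T-cell markers all rose (sum 4.35 to 6.97 and 165 to 184 CPM), as did the 5 NK-cell markers (11.2 to 11.5 and 109 to 121 CPM) and the 7 tested of 12 myeloid and dendritic-cell markers (all 12 summed to 12.2 to 13.2 and 45.3 to 53.5 CPM), of which Adgre1, Clec9a and Siglech had 0 counts in both WT libraries. In bulk RNA a smaller share of a cell type and less RNA per cell cannot be told apart, which holds for each gene below.

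The genes called of the T-cell side and those called of the antigen-presenting side moved in opposite directions in Mek1/2-tKO cultures. All 4 genes of the T-cell side fell, Cd40lg 15.5-fold, Ctla4 7.85-fold, Cd28 3.98-fold and Icos 2.58-fold. Of the 6 genes of the antigen-presenting side, 5 rose, Icosl 13.5-fold, Cd80 5.86-fold, Cd86 3.06-fold, Cd40 1.84-fold and Pdcd1lg2 1.75-fold, and Cd274 did not pass the test. Calls required an adjusted p under 0.05 (edgeR's quasi-likelihood test, Benjamini-Hochberg over all tested genes) and a fold change of at least 1.5, a rule that called 19.3% of all tested genes higher and 16.4% lower (2768 and 2355 genes, or 2388 and 2849 with library size alone as the scaling, which turned the balance). The libraries of the genotypes did not overlap in any of the 10 genes, and the same was true of 78.3% of all tested genes. The median log2 fold change was -2.48 over the T-cell side, 1.25 over the antigen-presenting side and 0.02 over all tested genes. The labels do not say that the 2 libraries of a genotype came from separate mice or cultures, so the p-values measure the spread between these libraries, which may be technical, and an exact permutation test of 2 against 2 cannot give a two-sided p below 0.333.

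**Figure D1:**
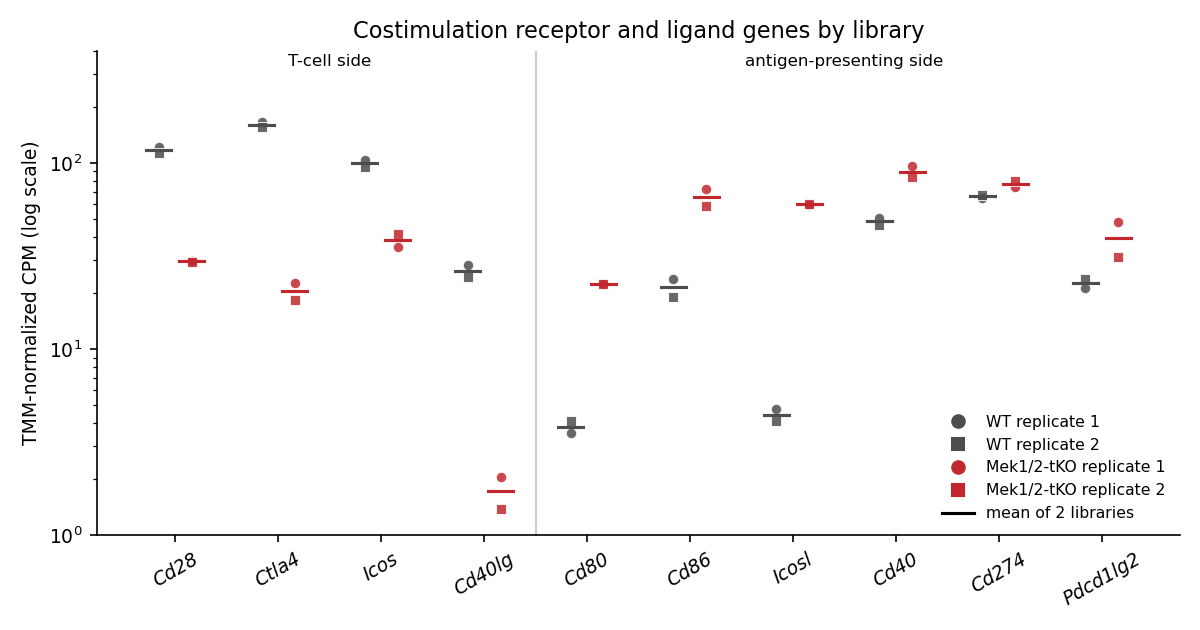
Level of each gene in each library, in TMM-normalized CPM on a log axis, with circles for replicate 1, squares for replicate 2, grey for WT, red for Mek1/2-tKO and a bar for the mean of 2 libraries. The red points lie below the grey for Cd28, Ctla4, Icos and Cd40lg and above them for the other 6 genes, with the smallest gap at Cd274.

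Cd28 (ENSMUSG00000026012.2, chr1:60716800-60773359, plus strand), the receptor that the anti-CD28 antibody of the culture engages at the protein level, had 121 and 113 CPM in the WT libraries and 29.9 and 29.2 CPM in the Mek1/2-tKO libraries. Both Mek1/2-tKO libraries were far below both WT libraries and nearly equal to each other. The log2 fold change was -1.99 (95% interval -2.20 to -1.78, SE 0.10, edgeR adjusted p = 2.18e-09), from 117 ± 5.64 to 29.5 ± 0.473 CPM (SD, n = 2 each). Ctla4 (ENSMUSG00000026011.13, chr1:60887000-60915832, plus strand), the inhibitory counterpart, had 165 and 156 CPM in the WT libraries, against 22.6 and 18.4 CPM in Mek1/2-tKO, and the genotypes did not overlap. It fell by 2.97 on the log2 scale (95% interval -3.21 to -2.73, SE 0.11, edgeR adjusted p = 1.38e-10). Icos (ENSMUSG00000026009.14, chr1:60977927-61000320, plus strand), which sustains Tfh cells, had 104 and 94.9 CPM in the WT libraries, against 35.2 and 41.7 CPM in Mek1/2-tKO. Here too both Mek1/2-tKO libraries were the lower ones, and replicate 2 was the higher of them, unlike for Ctla4. The log2 fold change of -1.37 (95% interval -1.60 to -1.13, SE 0.11, edgeR adjusted p = 2.30e-07) was the smallest of the 4 T-cell-side genes, and its interval did not meet that of Cd28.

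Cd40lg (ENSMUSG00000031132.1, chrX:57212143-57224042, plus strand), the helper signal to B cells, was the gene that fell most among the 10. It had 552 and 472 counts in WT and 32 and 26 counts in Mek1/2-tKO, which are 28.3 and 24.5 CPM against 2.06 and 1.38 CPM. The Mek1/2-tKO libraries thus held few counts, all the same well above the 3 that a count of 0 allows, and the genotypes did not overlap. The log2 fold change was -3.95 (95% interval -4.44 to -3.47, SE 0.23, edgeR adjusted p = 8.11e-09), with means of 26.4 ± 2.72 and 1.72 ± 0.482 CPM.

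These falls were read against the T-cell markers of the same libraries, because Trac, the constant region of the T-cell receptor alpha chain, and Cd3e, a signalling chain of the receptor complex, also fell (log2 fold changes -0.98 and -1.06). Per kilobase of exon, Cd28 was 0.0848 and 0.0755 of Trac in WT and 0.0377 and 0.0417 of it in Mek1/2-tKO. The ratio of Ctla4 to Trac went from 0.302 and 0.273 to 0.0750 and 0.0691, and that of Cd40lg to Trac from 0.0967 and 0.0797 to 0.0128 and 0.00968. Relative to Trac, then, all 3 were lower in both Mek1/2-tKO libraries, and so were the ratios to Cd3e. Icos over Trac was 0.129 and 0.113 in WT and 0.0792 and 0.106 in Mek1/2-tKO, a much narrower gap. Against Cd4, which fell by 3.73 on the log2 scale, the order changed. Cd28 over Cd4 was 0.270 and 0.258 in WT and 1.05 and 0.766 in Mek1/2-tKO, and Icos over Cd4 went from 0.412 and 0.386 to 2.20 and 1.95. Ctla4 over Cd4 was 0.961 and 0.935 in WT and 2.09 and 1.27 in Mek1/2-tKO. Its ratio to Cd4 was thus higher in both Mek1/2-tKO libraries, opposite to its ratio to Trac. Cd40lg over Cd4 overlapped between the genotypes, at 0.308 and 0.273 in WT and 0.355 and 0.178 in Mek1/2-tKO. Across the 11 alpha-beta T-cell markers, whose log2 fold changes ran from -3.73 to 0.24, Cd40lg was below all 11, Cd28 and Ctla4 were below 10 and Icos was below 9. Beside this, Cd3d, a further chain of the receptor complex, and Trbc1 and Trbc2, the constant regions of the beta chain, did not pass the test (0.20, 0.16 and -0.03). Cd3g, another chain of the complex, had a log2 fold change of 0.24 (edgeR adjusted p = 0.0254), within the fold threshold. The part that a changed cell makeup had in these falls was not tested.

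Icosl (ENSMUSG00000000732.9, chr10:78069302-78083913, plus strand), the ligand of ICOS, rose most of the 10 genes. It had 4.77 and 4.09 CPM in the WT libraries, against 59.4 and 60.4 CPM in Mek1/2-tKO, or 93 and 79 counts against 920 and 1135. Both genotypes were tight and far apart, with a log2 fold change of 3.75 (95% interval 3.44 to 4.06, SE 0.14, edgeR adjusted p = 1.57e-10). Cd80 (ENSMUSG00000075122.5, chr16:38455561-38496335, plus strand), a ligand of CD28 and CTLA-4, was also low in WT, at 3.54 and 4.09 CPM, and had 22.3 and 22.5 CPM in Mek1/2-tKO. Its log2 fold change was 2.55 (95% interval 2.15 to 2.95, SE 0.19, edgeR adjusted p = 9.88e-08), and the genotypes did not overlap. Cd86 (ENSMUSG00000022901.13, chr16:36603869-36666081, minus strand), the other ligand of this pair of receptors, had 23.9 and 19.02 CPM in WT libraries and 72.6 and 58.8 CPM in those of Mek1/2-tKO. Replicate 1 was the higher in each genotype, and the spread was far smaller than the gap of 1.61 on the log2 scale (95% interval 1.31 to 1.91, SE 0.14, edgeR adjusted p = 5.03e-07). Cd40 (ENSMUSG00000017652.16, chr2:165055627-165072948, plus strand), the receptor of CD40 ligand on B cells and dendritic cells, had 50.7 and 46.4 CPM in the WT libraries, against 95.8 and 83.4 CPM in Mek1/2-tKO. It rose less than Icosl, Cd80 and Cd86, by 0.88 (95% interval 0.66 to 1.11, SE 0.10, edgeR adjusted p = 9.61e-06).

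The PD-1 ligands lie side by side on chromosome 19. Cd274 (PD-L1, ENSMUSG00000016496.7, chr19:29367455-29388095, plus strand) had 65.0 and 67.2 CPM in the WT libraries, against 74.4 and 79.7 CPM in Mek1/2-tKO. The Mek1/2-tKO libraries were higher by a small margin, and the difference did not pass the test (log2 fold change 0.22, 95% interval 0.02 to 0.43 before adjustment, SE 0.09, edgeR adjusted p = 0.0610, range over the alternatives 0.0147 to 0.342). Pdcd1lg2 (PD-L2, ENSMUSG00000016498.9, chr19:29410919-29471157, plus strand) had 21.3 and 23.7 CPM in the WT libraries, against 47.8 and 31.3 CPM in Mek1/2-tKO. Its Mek1/2-tKO libraries were both above WT and stood apart from each other more than those of any other of the 10 genes. The log2 fold change was 0.81 (95% interval 0.44 to 1.18, SE 0.17, edgeR adjusted p = 0.00129), and without Mek1/2-tKO replicate 1 it was 0.47 (adjusted p = 0.00652), which is under the fold threshold of 1.5.

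**Figure D2:**
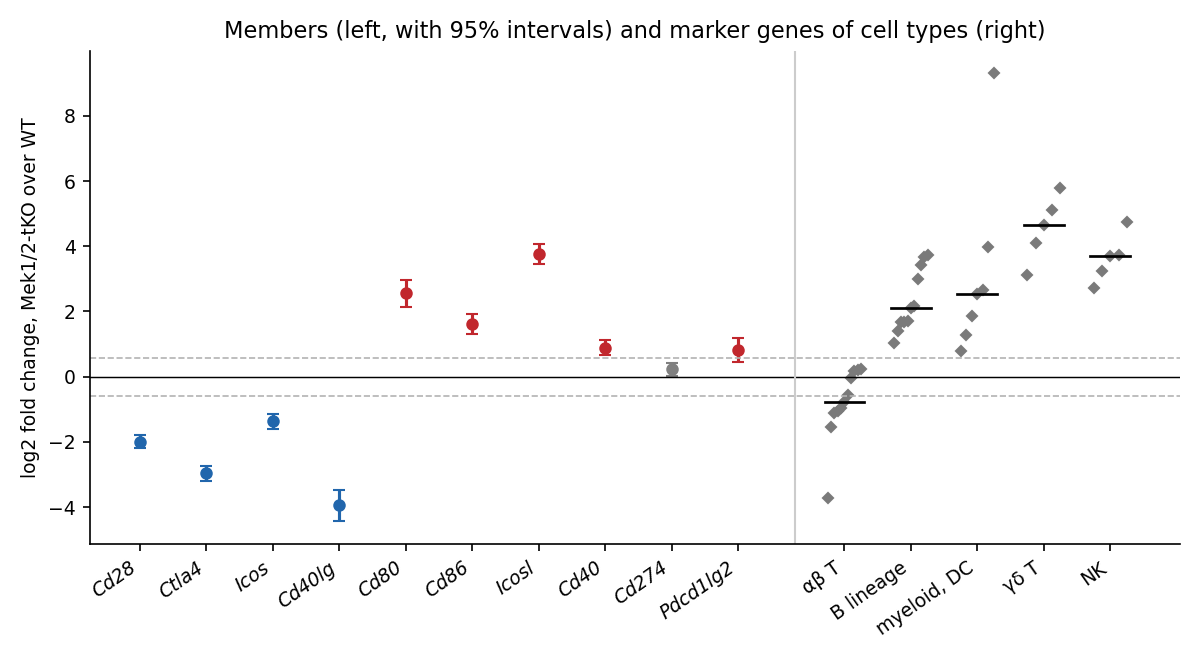
Log2 fold change of Mek1/2-tKO over WT for the 10 genes (left, points with 95% intervals, blue called lower, red called higher, grey not called) and for the tested marker genes of 5 cell types (right, diamonds, with a bar at the median of each list). Dashed lines mark a fold change of 1.5, and Icosl at 3.75 lies level with the highest B-lineage markers, while the highest myeloid diamond is Adgre1, which had 0 counts in WT and whose fitted value is no bound.

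B cells or myeloid cells are known to make all 6 of these genes, and they were set against the B-lineage markers, whose log2 fold changes ran from 1.02 to 3.73 with a median of 2.12. Icosl, at 3.75 (SE 0.14), had a higher value than all 11 markers, although its lead over Cd79b (3.73, SE 0.09) and Ighd (3.68, SE 0.09) was inside the error, and Cd80 lay above 7 of them, Cd86 above 2, and Cd40, Cd274 and Pdcd1lg2 lay below all 11. Per kilobase, Icosl over Ms4a1 (CD20), a surface protein of B cells, was 0.0580 and 0.0517 in WT and 0.163 and 0.180 in Mek1/2-tKO. Over Cd79a, a chain of the B-cell receptor complex, it was 0.0265 and 0.0219 against 0.0297 and 0.0310, so the size of the gap depended on the marker. Cd80 was higher over Ms4a1 in Mek1/2-tKO (0.0537 and 0.0645 against 0.0765 and 0.0836) and lower over Cd79a (0.0245 and 0.0273 against 0.0140 and 0.0144). Cd86 over Ms4a1 was 0.367 and 0.303 in WT and 0.252 and 0.222 in Mek1/2-tKO, lower in both Mek1/2-tKO libraries, as was Cd86 over Cd79a (0.168 and 0.128 against 0.0459 and 0.0381). Cd40 was lower over both markers, from 0.836 and 0.795 to 0.357 and 0.338 for Ms4a1 and from 0.382 and 0.337 to 0.0651 and 0.0582 for Cd79a. The ratios of Cd274 and Pdcd1lg2 to Cd79a and Ms4a1 were likewise all lower in Mek1/2-tKO. Against the 7 tested myeloid and dendritic-cell markers, with a median of 2.52, Icosl lay above 5, Cd80 above 4 and Cd86 above 2. Cd40 and Pdcd1lg2 lay above 1 of these 7, and Cd274 lay below all 7. These markers were low in WT, so such places are rough. The summed myeloid, gamma-delta T-cell and NK-cell markers given above rose in the same libraries. The part of any of these cell types in the levels of the 6 genes was not tested.

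Levels of different genes were compared as CPM per kilobase of exon. In WT, Ctla4 led with 68.9 ± 2.56 and Icos came next with 29.0 ± 1.85, followed by Cd40lg (21.1 ± 2.17), Cd28 (19.2 ± 0.922), Cd274 (18.2 ± 0.439), Cd40 (14.3 ± 0.877), Pdcd1lg2 (13.7 ± 1.03), Cd86 (5.86 ± 0.942), Cd80 (1.03 ± 0.106) and Icosl (0.959 ± 0.103). The WT libraries of Cd40lg and Cd28, of Cd28 and Cd274, of Cd40 and Pdcd1lg2, and of Cd80 and Icosl overlapped, so the order within these neighbours is not beyond their spread. In Mek1/2-tKO the order began with Cd40 (26.3 ± 2.58), Pdcd1lg2 (24.0 ± 7.11), Cd274 (21.3 ± 1.04) and Cd86 (17.9 ± 2.67), of which Pdcd1lg2 overlapped with each of the other 3. Icosl (13.0 ± 0.156), Icos (11.2 ± 1.34), Ctla4 (8.81 ± 1.29), Cd80 (6.05 ± 0.0237) and Cd28 (4.83 ± 0.0773) followed, and Cd40lg was last (1.38 ± 0.386). Ctla4 stood at or above 92.7% of all tested genes in WT and 60.8% in Mek1/2-tKO, Cd40lg at or above 78.5% and 24.5%, and Icosl at or above 20.8% and 68.7%.

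Ratios within a library do not depend on library scaling, and they set the receptors against each other. Ctla4 over Cd28, the inhibitory over the activating receptor of the same ligands, was 3.56 and 3.62 in WT and 1.99 and 1.66 in Mek1/2-tKO. Icos over Cd28 was 1.53 and 1.49 in WT and 2.10 and 2.55 in Mek1/2-tKO. All 3 genes fell, and in both Mek1/2-tKO libraries Ctla4 was lower relative to Cd28, and Icos higher, than in either WT library. Cd86 exceeded Cd80 in every library, 6.83 and 4.70 times in WT and 3.29 and 2.65 times in Mek1/2-tKO. Of the 6 pairs, those of a ligand with its receptor moved furthest. Cd40lg over Cd40 was 1.52 and 1.44 in WT and 0.0587 and 0.0452 in Mek1/2-tKO, 28.7-fold lower, and Icosl over Icos was 0.0341 and 0.0320 in WT and 1.25 and 1.08 in Mek1/2-tKO, 35.2-fold higher. Cd274 exceeded Pdcd1lg2 in WT (1.38 and 1.29) and the libraries of Mek1/2-tKO lay on either side of equality (0.707 and 1.16).

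**Figure D3:**
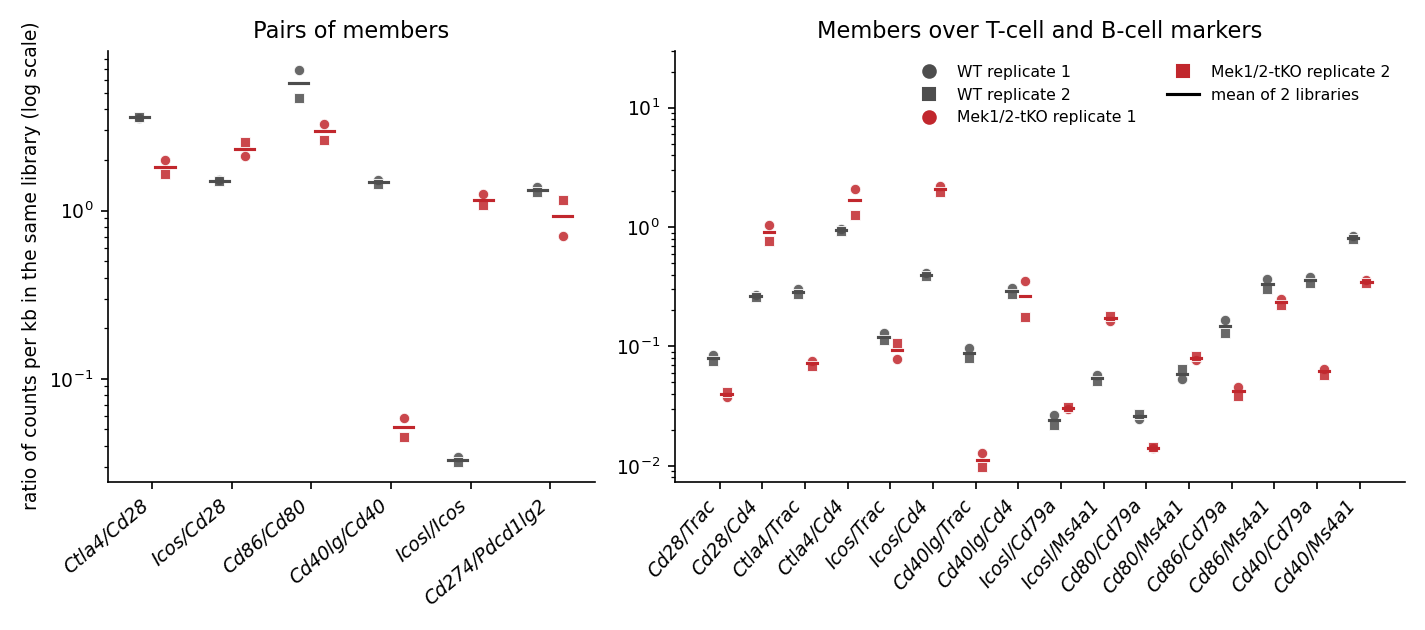
Ratios of counts per kilobase within each library on log axes, for pairs of the 10 genes (left) and for 8 T-cell-side and 8 antigen-presenting-side ratios to marker genes (right), with circles for replicate 1, squares for replicate 2, grey for WT, red for Mek1/2-tKO and a bar for the mean of 2 libraries. Cd40lg over Cd40 and Icosl over Icos are the pairs that differ most, and Cd40lg over Cd4 overlaps between the genotypes.

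Genes that act with these receptors were counted by list. Of 8 further genes, CD28 and B7 relatives with Cd160 and Tnfrsf14 (HVEM) beside them, 6 were tested, and 2 rose and 2 fell. Btnl2, a butyrophilin-like B7 relative, rose from 0.929 ± 0.299 to 8.20 ± 1.65 CPM (log2 fold change 3.14), and Cd160, a receptor of HVEM found on NK and T cells, rose from 6.88 ± 0.161 to 51.8 ± 5.35 CPM (2.91). The inhibitory receptors Btla and Vsir (VISTA) fell by 0.71 and 0.62. Pdcd1 (PD-1), the receptor of Cd274 and Pdcd1lg2, had 70.9 and 64.0 CPM in WT libraries against 72.9 and 88.1 CPM and did not pass the test (0.26, edgeR adjusted p = 0.0612). Vtcn1 had 0 counts in every library and Cd276 in both WT libraries.

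Of 18 genes that signal below CD28 and ICOS, 1 rose and 6 fell, with a median of -0.37. Pdpk1, the kinase that activates AKT, fell by 0.88. Lcp2, the adaptor SLP-76, fell by 0.78 and Carmil2, a scaffold of CD28 signalling, by 0.76. Lck, the Src-family kinase of the T-cell receptor, had a log2 fold change of -0.54, within the fold threshold. Of 11 genes of CTLA-4 trafficking, 1 rose and 3 fell. Trat1 (TRIM), an adaptor that brings CTLA-4 to the cell surface, fell from 22.7 ± 2.85 to 3.68 ± 0.459 CPM (-2.63), and Lrba, which protects CTLA-4 from lysosomal degradation, fell by 1.03. Lax1, a related adaptor of T and B cells, had 23.6 and 26.4 CPM in WT and 164 CPM in each Mek1/2-tKO library (2.71), and Ap2a1, a subunit of the clathrin adaptor, fell by 0.65. Of 9 genes known to rise on T-cell activation, 1 rose and 5 fell. Il2, the growth factor whose transcription CD28 costimulation raises, had 113 and 111 CPM in the WT libraries, against 15.6 and 9.63 CPM in Mek1/2-tKO (-3.17, SE 0.16, edgeR adjusted p = 2.71e-09). The OX40 gene Tnfrsf4 fell by 1.58, the glucose transporter gene Slc2a1 by 1.55 and Myc by 1.19, whereas Tnfrsf9 (4-1BB) rose by 0.77.

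Below CD40, 13 signalling genes gave 1 higher and 2 lower. Traf5 rose by 1.71, Traf6 fell by 0.84 and the inhibitor Tnfaip3 (A20) fell by 0.63, and Nfkb2, the most abundant of the list, had a log2 fold change of -0.48, within the fold threshold. Of 7 genes that CD40 is known to induce in B cells or dendritic cells, 3 rose and 1 fell. The chemokine genes Ccl17 and Ccl22 rose by 2.99 and 1.23, and the maturation marker Cd83 rose by 1.39, from 173 ± 0.858 to 453 ± 28.7 CPM. Fcer2a (CD23) fell by 0.59, just past the fold threshold. Of 9 genes that regulate the PD-1 ligands, 4 rose and 2 fell. Socs1 rose by 1.34, Irf1, a transcription factor that induces Cd274, by 0.99, and Jak2, which lies 54.4 kb from Cd274, fell by 1.54. Cmtm4, which stabilizes PD-L1 protein, fell by 1.04, while the related and more abundant Cmtm6 had a log2 fold change of -0.05. Of 5 phosphatase genes that act with PD-1 or CTLA-4, Ptpn11 (SHP-2) fell by 0.85 and the other 4 were not called, with Ptpn6 (SHP-1) at 0.28. The shares of all tested genes called, 19.3% higher and 16.4% lower, are the background of these counts.

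**Figure D4:**
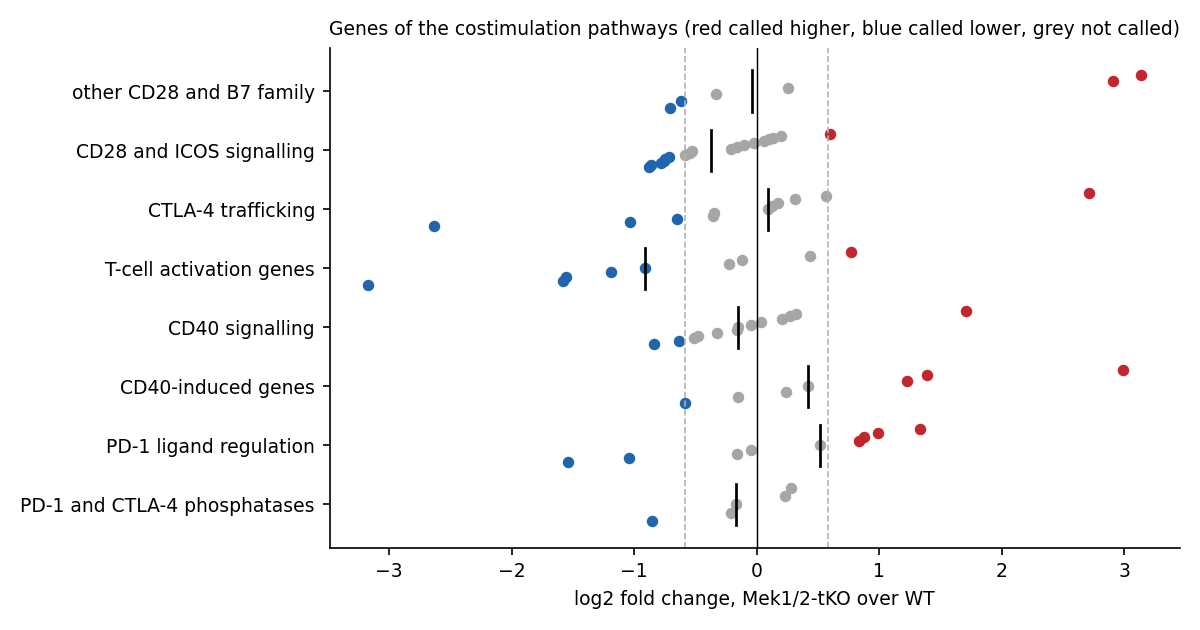
Log2 fold change of Mek1/2-tKO over WT for the tested genes of 8 lists around the costimulation receptors (red called higher, blue called lower, grey not called, bar at the median of each list, dashed lines at a fold change of 1.5). Il2 at -3.17 and Trat1 at -2.63 lie farthest to the left, and Btnl2 at 3.14 and Ccl17 at 2.99 farthest to the right.

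Promoter sequence was read for the members in the RefSeq table of GRCm38.p6, which held 5 of the 10 (Ctla4, Icosl, Cd80, Cd274 and Pdcd1lg2), to show what stands before genes that fell, rose or did not pass the test. The 250 bases before each start were searched on both strands for TGANTCA (AP-1, in 6.75% of 32851 promoters), TTCNNNGAA (STAT, 7.02%), GAAANNGAA (IRF, 7.13%), GGGANTTTC (NF-kappaB, 0.941%) and the short NFAT core GGAAA (55.6%). The stretches next to the start of 3 genes are printed 5′ to 3′ on the plus strand, with the AP-1 or IRF match in capitals (Ctla4 at chr1:60908825-60909024, inside the gene span of the files, which begins farther upstream; Cd80 at chr16:38458833-38458932, likewise inside its gene span; Cd274 at chr19:29367338-29367437).
Ctla4: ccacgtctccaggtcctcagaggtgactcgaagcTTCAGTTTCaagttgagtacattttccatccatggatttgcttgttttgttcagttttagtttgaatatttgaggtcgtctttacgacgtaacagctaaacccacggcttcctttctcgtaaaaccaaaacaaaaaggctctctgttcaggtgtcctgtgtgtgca
Cd80: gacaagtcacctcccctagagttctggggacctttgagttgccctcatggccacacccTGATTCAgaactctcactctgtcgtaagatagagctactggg
Cd274: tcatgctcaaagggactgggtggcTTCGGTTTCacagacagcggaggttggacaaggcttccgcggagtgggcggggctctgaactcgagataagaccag
Ctla4 held an IRF match on the minus strand, 166 to 158 bases before the start, and Cd274 held another, 76 to 68 bases before its start. The Cd274 match lies inside the span of the neighbouring gene Plgrkt, which reaches chr19:29367390. Cd80 held an AP-1 match 42 to 36 bases before the start. The NFAT core stood in the windows of Ctla4, Cd274 and Pdcd1lg2, and Icosl, which rose most, held none of the 5 motifs in this window. Ctla4, which fell, and Cd274, which did not pass the test, thus shared a match, and a match is a description of letters and not of binding.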

How the data were processed

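RNA of Tfh-polarized cells was sequenced in 2 WT and 2 Mek1/2-tKO libraries. The authors trimmed reads with Trimmomatic 0.36, mapped them to GRCm38, counted unique alignments per gene by featureCounts (Subread 1.5.1) and deposited raw counts per gene and library, without normalization. The annotation release and the strand setting are not given in the sources used here, so a gene and an antisense partner may share reads. No member shared exon bases with another gene, and a whole-gene count does not separate transcript forms.

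Counts were filtered (filterByExpr), scaled by TMM and compared with edgeR 4.0.16 in R 4.3.3 (limma 3.58.1; robust quasi-likelihood fit, no covariate, Benjamini-Hochberg adjustment over 14330 genes), with calls made past 1.5-fold where the adjusted p was under 0.05. The standard error is the log2 fold change divided by the root of F. The fit was tested on simulated data. Replicates differed beyond sampling noise (chi-square per gene 4.19 in WT and 10.9 in Mek1/2-tKO). No replicate block was used. The alternatives tried were a likelihood-ratio test, DESeq2 1.42.0, other scalings, filters and thresholds, a replicate block and leaving out each library.

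Genes given by name were the 10 members, the targets, the called genes of largest fold and the most abundant genes of each list, markers, and called neighbours; Pdcd1, Cd276, Vtcn1, Lck, Tnfrsf9, Cmtm6, Cd4, Ms4a1 and the T-cell receptor chain genes were added after their values were seen. Members and lists were chosen with earlier results of these data known. Motif stretches were read from GENCODE M21 coding sequences and promoters from RefSeq. Limits for a count of 0 cover counting error only. Some genes of the lists are counted in them and not reported here by name.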

Additional observations from a re-analysis of the deposited data

How the results depend on the processing

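Of 110 values of the 10 genes under the alternatives, 109 kept their direction and their call (adjusted p and fold change together) and 0 reversed. Cd274 passed the adjusted p alone with at least 10 counts in every library (0.0442) and without Mek1/2-tKO replicate 1 (0.0147), below the fold threshold each time. The exception was Pdcd1lg2 without Mek1/2-tKO replicate 1 (0.47 on the log2 scale), where the genes called higher were 4 in place of 5. At a fold change of at least 2, 3 genes were called higher (Icosl, Cd80 and Cd86). With the replicate block 2652 genes were called higher and 2300 lower, 5 and 4 of them among the 10, and libraries with equal numbers share no stated origin (their deviations from the genotype means correlated at -0.0233 over 12733 genes). Leaving out each library, 2338 to 2791 of all genes were called higher and 2119 to 2627 lower. With 2 libraries a genotype, log2 fold changes of the 10 moved by leaving out a library most for Pdcd1lg2 (0.47 to 1.08) and Cd40lg (-4.25 to -3.68), the latter with 26 to 32 counts in Mek1/2-tKO.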

Other observations

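Genes around the costimulation loci changed about as often as genes elsewhere. Within 500 kb of the 10 genes lay 74 tested genes that are not among them, of which 11 rose and 14 fell, or 33.8% against 35.8% of all tested genes. Cd28, Ctla4 and Icos lie in a row, 114 kb and 62.1 kb apart, and in the same neighbourhood Raph1 and Cyp20a1 fell (log2 fold changes -1.39 and -0.64), as did Abi2. Rpl18-ps1, a ribosomal protein pseudogene inside the span of Ctla4, rose by 0.89, and reads of its parent gene may be counted on it. Cd274 and Pdcd1lg2 lie 22.8 kb apart. Plgrkt, which begins 0.064 kb from Cd274 and runs the other way on the minus strand, rose by 0.68, and Jak2, farther out on the same side of Cd274, fell by 1.54. Pla1a, 22.4 kb from Cd80, rose by 1.96, whereas Pfkl, a glycolytic enzyme gene 59.2 kb from Icosl, fell by 1.84, opposite to its neighbour. Arhgef6, 7.44 kb from Cd40lg, fell by 0.83.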
